A study of Glycine max with 20 samples.

Results

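FAD2 enzymes are the oleate desaturases of the endoplasmic reticulum, and the soybean genome carries several gene copies of them. Of 66210 gene models counted in soybean (Glycine max) leaf, 5 were taken as the FAD2 family, chosen from a list of identifiers drawn up with earlier results of these data in view. These were Glyma10g42470.1, Glyma20g24530.1, Glyma19g32940.1, Glyma19g32930.1 and Glyma03g30070.1. The steep 4 h level of Glyma10g42470.1 in the line called W was already known when the family was chosen, so its 4 h values against 0 h are described here and not tested where W enters. Of the 5 models, 4 had enough reads to be tested.

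RNA was sequenced from leaves of near-isogenic soybean lines, which share most of their genome, with the genotypes rag2 (susceptible to aphids) and Rag2 (resistant). Each line was sampled without aphids (0 h) and at 4, 8, 24 and 48 h of infestation, with 2 replicates in each of the 10 groups of line and time, or 20 libraries. The count table names the lines W and BC, and no source used here says which of them is Rag2, so no direction relative to resistance is given. Uninfested leaves were sampled at 0 h alone, so infestation and the hour of sampling cannot be told apart at the later times. The sources used here do not give growth conditions, plants per replicate or the aphid biotype.

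An oleate desaturase places a second double bond in oleate and so makes linoleate, mostly while the fatty acid is bound to a membrane lipid. Linoleate is in turn the substrate for making linolenate, from which plants make jasmonate, a hormone of wounding and insect defence. In soybean the FAD2-1 copies are known chiefly from the developing seed, where FAD2-1A and FAD2-1B set how much oleate is left in the oil, and mutants in both give high-oleic beans. The FAD2-2 copies are known as the desaturases of leaves, roots and other vegetative tissue.

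The names were set beside the RefSeq gene table (assembly Glycine_max_v4.0), which lists 7 genes under FAD2 symbols. It places FAD2-1A on chromosome 10, where Glyma10g42470.1 lies by its identifier, and FAD2-1B on chromosome 20, where Glyma20g24530.1 lies. The FAD2 gene it places on chromosome 3, as Glyma03g30070.1 lies, has the symbol FAD2-2, with both FAD2-2a and FAD2-2C among its other names, and is called FAD2-2C here. On chromosome 19 it lists FAD2-2A and FAD2-2B side by side with 0 genes between them, spanning 1062 and 4662 bases. Which of these names belongs to Glyma19g32940.1 and which to Glyma19g32930.1 could not be settled, so both are called by their identifiers. The copies FAD2-2D on chromosome 9 and FAD2-3 on chromosome 6 were not analysed here, because 0 identifiers of the count table matched the reference.

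Reads in gene models ranged from 7558768 to 38227436 per library. Levels are CPM, the read counts of a model scaled to library size, with TMM-scaled library sizes, and a level is compared between samples of 1 model, not between models, because lengths were not at hand. The BC 0 h replicate 2 library stood apart, with a mean correlation of 0.893 with the other libraries (0.906 to 0.950 for the rest) and 7.46% of its reads outside gene models. It was kept, and changes against 0 h that rest on it are mostly given with and without it. Correlations, lists of most-like models and fitted differences of level between the lines are given only with it. Defining markers of leaf and seed could not be looked up, so the tissue label was not checked against them.

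Nearly all reads of the 5 FAD2 models came from a pair of FAD2-2 copies. Glyma19g32940.1 gave 74.8% of the family's reads over all libraries (188088 reads) and FAD2-2C gave 24.4% (61497 reads). FAD2-1A gave 0.595% (1497 reads), FAD2-1B 0.166% (417 reads) and Glyma19g32930.1 0.0378% (95 reads). These are shares of reads and not of molecules, and reads of near-identical copies may have been assigned wrongly. The mean level over all libraries was 518 ± 163 CPM for Glyma19g32940.1 and 175 ± 50.3 CPM for FAD2-2C (SD, n = 20).

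FAD2-1A, a copy known for its work in seed, was scarce in leaf at most times and high at 4 h in both lines. In W its level in replicates 1 and 2 was 0.769 and 1.45 CPM without aphids (20 and 52 reads), 32.5 and 10.1 CPM after 4 h (736 and 289 reads) and 4.06 and 3.99 CPM after 8 h (37 and 65 reads). It was 1.21 and 0.487 CPM after 24 h (20 and 10 reads) and 0 and 0.258 CPM after 48 h (0 and 2 reads). Both W libraries at 4 h lay above all 18 others, and 1 of them held 736 of the model's 1497 reads. In BC the level was 0.363 and 0.286 CPM without aphids (5 and 2 reads), 2.50 and 9.61 CPM after 4 h (41 and 93 reads) and 2.59 and 1.51 CPM after 8 h (41 and 34 reads). It was 0.869 and 0.348 CPM after 24 h (25 and 14 reads) and 0.547 and 0.505 CPM after 48 h (7 and 4 reads). The BC libraries at 4 and 8 h overlapped each other and lay above all BC libraries at the other times.

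Ordered by mean level, the groups for FAD2-1A ran from W at 4 h (21.3 CPM) through BC at 4 h (6.06), W at 8 h (4.02), BC at 8 h (2.05), W at 0 h (1.11), W at 24 h (0.851), BC at 24 h (0.609), BC at 48 h (0.526) and BC at 0 h (0.325) to W at 48 h (0.129). Neighbours in that order overlapped between BC at 4 h and W at 8 h, and all along from W at 0 h to BC at 48 h. The other neighbours did not overlap, with 2 libraries in each group, and the lowest groups rest on single-digit read numbers.

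FAD2-1B, the partner of FAD2-1A in the seed, followed the same course at a smaller amplitude. In W its level was 0.653 and 0.642 CPM without aphids (17 and 23 reads), 3.49 and 2.30 CPM after 4 h (79 and 66 reads) and 2.85 and 2.21 CPM after 8 h (26 and 36 reads). It was 0.486 and 0.341 CPM after 24 h and 0.326 and 0.129 CPM after 48 h. In W the libraries at 4 and 8 h overlapped each other and lay above those at 0, 24 and 48 h. In BC the level was 0.218 and 1.00 CPM without aphids (3 and 7 reads), 2.14 and 2.69 CPM after 4 h (35 and 26 reads) and 1.32 and 1.25 CPM after 8 h (21 and 28 reads). It was 0.452 and 0.199 CPM after 24 h and 0.390 and 0.505 CPM after 48 h. The BC order was thus 4 h above 8 h above the remaining times, without overlap between these 3 sets.

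Across all 10 groups the mean FAD2-1B level ran from 2.89 CPM (W at 4 h) through 2.53 (W at 8 h) and 2.41 (BC at 4 h) to 1.29 (BC at 8 h), and then from 0.648 (W at 0 h) down to 0.228 (W at 48 h). The first 3 groups overlapped as neighbours, BC at 8 h stood between without overlap, and the lower 6 overlapped each with the next. The levels of FAD2-1A and FAD2-1B correlated over the 20 libraries (Pearson r = 0.865 on log2 CPM), a description over libraries that share the 5 times. Over the 10 group means r was 0.942.

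**Figure D1:**
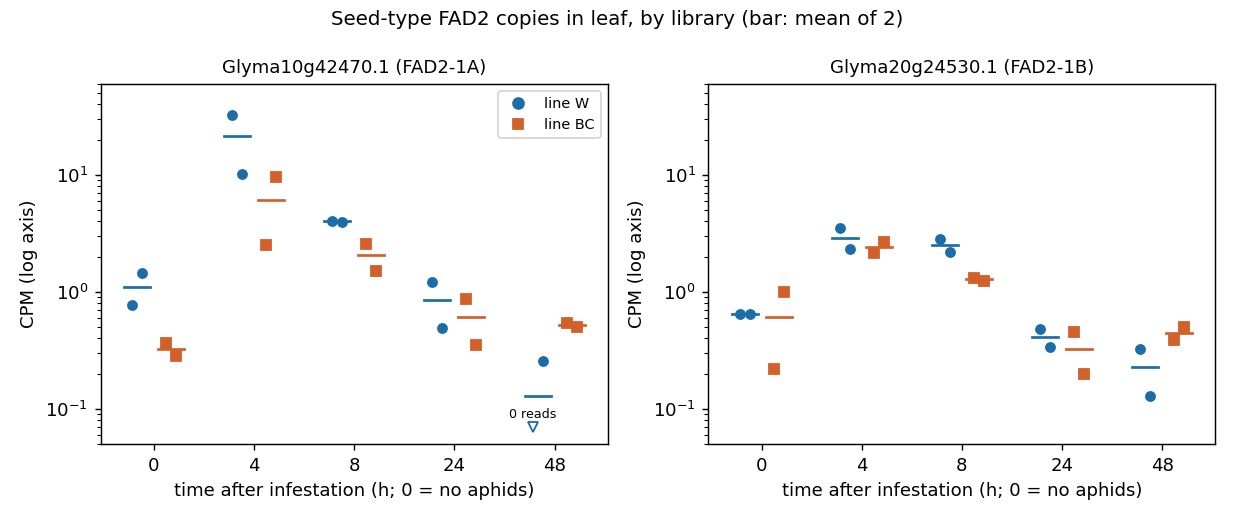
Level of Glyma10g42470.1 (FAD2-1A, left) and Glyma20g24530.1 (FAD2-1B, right) in CPM on a log axis, by time after infestation; circles are W libraries, squares BC libraries, short bars the mean of 2, and the open triangle a library with 0 reads. The 4 h libraries of FAD2-1A reach 32.5 CPM in W and 9.61 CPM in BC, and FAD2-1B peaks at 3.49 CPM.

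FAD2-1B rose at 4 h and at 8 h in the mean of both lines. At 4 h its fitted change against 0 h was 2.15 ± 0.39 on the log2 scale (SE), or 4.43-fold (edgeR quasi-likelihood test with Benjamini-Hochberg adjustment over 38918 models, adjusted p = 0.0108). At 8 h the change was 1.60 ± 0.39 (adjusted p = 0.0343). At 4 h this was the only one of the 3 FAD2 models tested that passed, where 1.64% of all tested models passed in either direction. At 8 h 2 of 4 FAD2 models passed, against 3.93% of all models. Replicates were separate samples by their labels, and in bulk leaf RNA a change in the number of cells of a type and a change in RNA per cell cannot be told apart.

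The 4 h rise of FAD2-1B kept its direction without the BC 0 h replicate 2 library (2.78, adjusted p = 0.00540), which had held 7 of the 10 reads of that group. It missed the threshold without W 0 h replicate 2 (adjusted p = 0.0625), without W 4 h replicate 1 (0.0506) and in limma with library weights (0.120). The 8 h rise missed it without any 1 of 8 libraries, both replicates of W 0 h, W 8 h, BC 8 h and BC 48 h. In limma the 8 h rise also missed the threshold (1.71, adjusted p = 0.195). The 8 h estimate was 1.16 without BC 0 h replicate 1 and 2.23 without BC 0 h replicate 2.

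The fitted change of FAD2-1A at 4 h, given as a description, was 4.18 ± 0.59 on the log2 scale for both lines (SE). Within W it was 4.24 ± 0.75, and 3.16 without W 4 h replicate 1, the library with 736 reads. In BC, whose libraries had not drawn attention to the gene, the 4 h change was 4.13 ± 0.92 and did not pass (edgeR adjusted p = 0.0865). In DESeq2 the change passed (adjusted p = 0.00117). In edgeR it was 4.36 without BC 0 h replicate 1, a fit with the library that stood apart as the only BC library at 0 h. It did not pass in edgeR without BC 0 h replicate 2 (4.01, adjusted p = 0.551) or in limma (3.65, adjusted p = 0.994), and leaving out 1 library gave estimates from 2.89 to 4.82. In BC at 4 h, 0 of 4 FAD2 models passed in edgeR and 2 in DESeq2, where 0.0822% of all models passed in edgeR (32 models) and 1895 models passed in DESeq2. The 0 h level in BC rests on 7 reads.

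At 8 h the mean level of FAD2-1A lay between its 4 h and 0 h means in each line. The W 0 h libraries also enter the 4 h rise of FAD2-1A that was known when the family was chosen. P-values of its later changes that include W are therefore not independent of that choice. Its 8 h change against 0 h for both lines was 2.21 ± 0.59 and missed the threshold (edgeR adjusted p = 0.0538). It passed in DESeq2 (adjusted p = 0.00451) and in edgeR when any 1 of the 4 libraries of 4 h was left out (0.0294 to 0.0401). It did not pass in limma (adjusted p = 0.723) or without BC 0 h replicate 2 (2.15, adjusted p = 0.156). At 24 h the fitted change was 0.20 (adjusted p = 0.945) and for FAD2-1B -0.70 (adjusted p = 0.628).

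In W at 48 h only 2 reads of FAD2-1A were left, against 72 at 0 h. Per scaled library size that is a ratio of 0.0859 (exact 95% interval 0.0102 to 0.322, counting error only), and the edgeR change did not pass (adjusted p = 0.281). At 4 h the W libraries had held 1025. In BC at 48 h there were 11 reads against 7 at 0 h, a ratio of 1.57 with an interval of 0.557 to 4.79.

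Within a single line no FAD2-1 change that was tested passed in edgeR with all 20 libraries. For FAD2-1B the 4 h change was 2.15 in W (adjusted p = 0.0752) and 2.15 in BC (0.113), and the 8 h change was 1.95 in W (0.0870) and 1.25 in BC (0.226). The W changes passed when 1 or the other BC 0 h library, which do not enter them, was left out, at 4 h (0.0242 and 0.0243) and at 8 h (0.0290 and 0.0293). The BC changes moved with the 0 h library left out, and none of these passed. At 4 h they were 1.27 without replicate 1 and 3.42 without replicate 2, and at 8 h 0.37 and 2.52. In W, 0 of the 3 FAD2 models tested passed at 4 h and 0 of 4 at 8 h, where 0.794% and 1.53% of all models passed. In DESeq2 and in limma 1 FAD2 model, FAD2-1B, passed in W at each of these times, among 730 and 1205 models in DESeq2 and 547 and 1131 in limma.

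**Figure D2:**
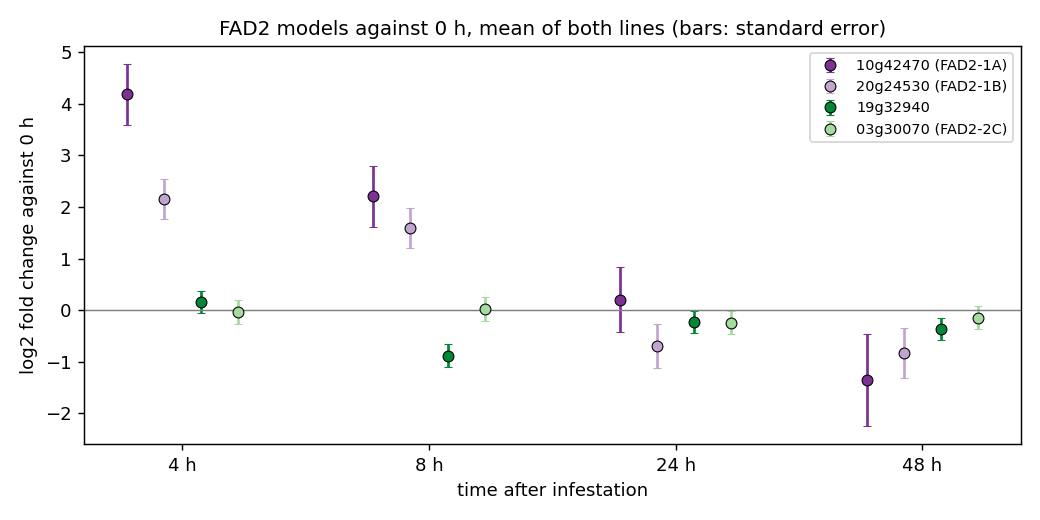
Fitted log2 fold change against 0 h, mean of both lines, for the 4 FAD2 models with enough reads. Points are estimates and bars are standard errors, calculated from the F statistic of the test. FAD2-1A and FAD2-1B are highest at 4 h (4.18 and 2.15), and Glyma19g32940.1 is lowest at 8 h (-0.88).

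Glyma19g32940.1, the leaf copy with most reads, fell at 8 h while the FAD2-1 copies were above their 0 h level. In W its level in replicates 1 and 2 was 508 and 460 CPM without aphids, 843 and 661 after 4 h, 333 and 390 after 8 h, 639 and 524 after 24 h and 521 and 488 after 48 h. In W both libraries at 8 h were the lowest of the 10 and both at 4 h the highest. In BC the level was 598 and 882 CPM without aphids, 470 and 706 after 4 h, 339 and 246 after 8 h, 454 and 443 after 24 h and 423 and 430 after 48 h. In BC too both libraries at 8 h were the lowest, but the highest was BC 0 h replicate 2, the library that stood apart.

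In both lines together Glyma19g32940.1 fell by 0.88 on the log2 scale at 8 h (SE 0.22), to 0.544 of its 0 h level (edgeR adjusted p = 0.0379). In BC it fell by 1.34 (SE 0.31, adjusted p = 0.0361), the only one of the 4 FAD2 models to pass where 3.55% of all models passed. In W the change was -0.42 and did not pass (adjusted p = 0.693). The joint test of a difference in time course between the lines did not pass for this model (adjusted p = 0.619).

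The 8 h fall lay near the threshold. Without BC 0 h replicate 2 it was -0.73 for both lines and -1.03 in BC. Without BC 0 h replicate 1, which leaves the library that stood apart alone at 0 h in BC, it was -0.999 and -1.58. In all, the fall for both lines missed the threshold in 14 of 20 fits that left out 1 library, with adjusted p from 0.0538 to 0.139. These libraries were both replicates of W at 0, 8, 24 and 48 h, both of BC at 24 and 48 h, and replicate 2 of BC at 0 h and 8 h. The fall in BC missed it in 11 such fits (0.0537 to 0.209), namely both replicates of W at 8 and 48 h and of BC at 8, 24 and 48 h, and BC 0 h replicate 2. The change kept its sign in all of them, from -1.001 to -0.73 for both lines.

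At the other times Glyma19g32940.1 did not pass for both lines, with changes of 0.15 at 4 h (adjusted p = 0.784), -0.23 at 24 h (0.769) and -0.37 at 48 h (0.535). Its mean level ran from W at 4 h (752 CPM) through BC at 0 h (740), BC at 4 h (588), W at 24 h (582), W at 48 h (504), W at 0 h (484), BC at 24 h (448), BC at 48 h (427) and W at 8 h (361) to BC at 8 h (293). Neighbours overlapped along the first 4 groups, between W at 48 h and W at 0 h, and between the 8 h groups of W and BC. From W at 0 h down to W at 8 h each group lay below the one before it without overlap.

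FAD2-2C, the second leaf copy by reads, correlated with Glyma19g32940.1 at r = 0.416 over the 20 libraries (Pearson, log2 CPM, a description). In W its level was 158 and 142 CPM without aphids, 248 and 147 after 4 h, 221 and 262 after 8 h, 183 and 155 after 24 h and 227 and 209 after 48 h. In BC it was 147 and 291 CPM without aphids, 135 and 181 after 4 h, 143 and 136 after 8 h, 131 and 146 after 24 h and 133 and 114 after 48 h. W lay above BC without overlap at 8, 24 and 48 h, and the lines overlapped at 0 and 4 h. Of all tested models 22.2% had W above BC without overlap at 8 h, 19.6% at 24 h and 25.2% at 48 h, and 2.37% at all 3 times. The single high value in BC came from BC 0 h replicate 2.

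No change of FAD2-2C against 0 h passed for both lines, and its estimates were -0.04 at 4 h (edgeR adjusted p = 0.961), 0.02 at 8 h (0.979), -0.24 at 24 h (0.764) and -0.14 at 48 h (0.831). Within the lines the 8 h estimates lay on either side of 0, with 0.69 in W (adjusted p = 0.454) and -0.65 in BC (0.244). The BC estimate was -0.08 without BC 0 h replicate 2 (adjusted p = 0.932). It was -1.04 without BC 0 h replicate 1, a fit in which the library that stood apart was the only BC library at 0 h. Group means ran from 241 CPM (W at 8 h) through 219 (BC at 0 h), 218 (W at 48 h), 197 (W at 4 h), 169 (W at 24 h), 158 (BC at 4 h), 150 (W at 0 h), 140 (BC at 8 h) and 139 (BC at 24 h) to 123 (BC at 48 h). Every group in that order overlapped with the next.

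**Figure D3:**
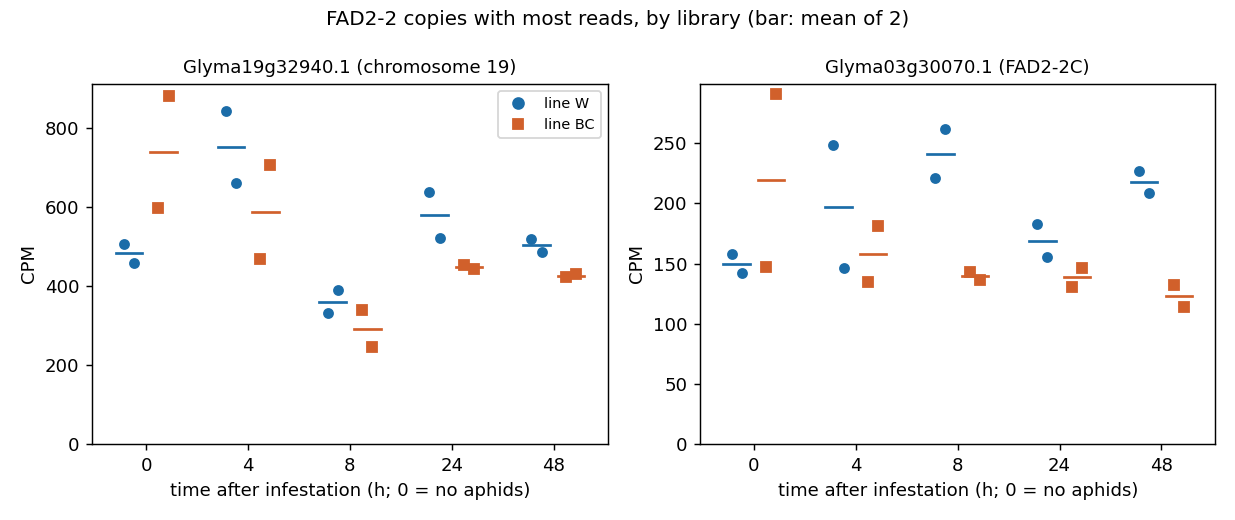
Level of Glyma19g32940.1 (left) and Glyma03g30070.1 (FAD2-2C, right) in CPM by time after infestation, on axes from 0; circles are W libraries, squares BC libraries and short bars the mean of 2. The 8 h libraries of Glyma19g32940.1 are the lowest in each line (246 to 390 CPM), while FAD2-2C in W is at 221 and 262 CPM at that time.

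The read ratio of these leaf copies within a library does not depend on how libraries are scaled. Reads of Glyma19g32940.1 per read of FAD2-2C in W replicates 1 and 2 were 3.22 and 3.23 without aphids, 3.40 and 4.51 after 4 h, 1.51 and 1.49 after 8 h, 3.50 and 3.37 after 24 h and 2.30 and 2.34 after 48 h. In BC they were 4.06 and 3.03 without aphids, 3.49 and 3.90 after 4 h, 2.38 and 1.80 after 8 h, 3.47 and 3.02 after 24 h and 3.19 and 3.77 after 48 h. In each line both 8 h libraries were the lowest 2 of 10. This ratio was formed after the levels had been seen and was not tested.

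Within the FAD2-1 pair the share of FAD2-1A was highest in W at 4 h. The high FAD2-1A level of that group was known when the family was chosen, so this is a description and was not tested. FAD2-1A made up 64.3% of the reads of the pair in W at 0 h (exact binomial 95% interval 54.7 to 73.1, counting error only), 87.6% at 4 h (85.6 to 89.4), 62.2% at 8 h (54.3 to 69.6), 66.7% at 24 h (51.0 to 80.0) and 28.6% at 48 h (3.67 to 71.0). In BC the share was 41.2% at 0 h (18.4 to 67.1), 68.7% at 4 h (61.7 to 75.2), 60.5% at 8 h (51.3 to 69.1), 65.0% at 24 h (51.6 to 76.9) and 55.0% at 48 h (31.5 to 76.9). Libraries of 1 group differed beyond these intervals at 4 h, with 90.3% and 81.4% in W and 53.9% and 78.2% in BC.

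**Figure D4:**
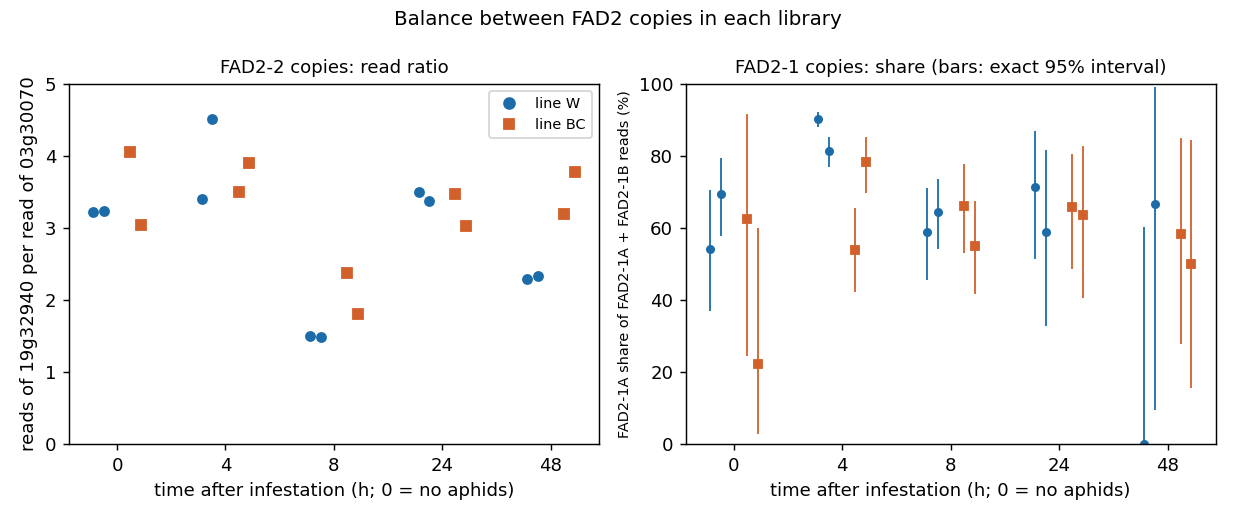
Left, reads of Glyma19g32940.1 per read of FAD2-2C in each library; right, FAD2-1A as a percentage of FAD2-1A and FAD2-1B reads in each library, with exact 95% binomial intervals as bars; both by time after infestation, circles for W and squares for BC. The ratio on the left is lowest at 8 h in each line (1.49 and 1.51 in W, 1.80 and 2.38 in BC). The share on the right is highest in W at 4 h (81.4% and 90.3%), a group whose high FAD2-1A level was already known.

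Glyma19g32930.1 was nearly silent in these leaves. It had 95 reads in all, from 0 to 8 per library, with at least 1 read in 18 of 20 libraries, and a mean of 0.277 CPM. Group means ran from 0.0727 CPM (BC at 0 h, 2 reads) to 0.483 CPM (W at 8 h, 11 reads). It did not pass the filter on low counts and no change was tested. The next models by locus number on either side were Glyma19g32920.1, with a mean of 1.13 CPM, and Glyma19g32940.1, the copy with most reads (518 CPM). Beyond that copy lay Glyma19g32950.1 (15.9 CPM). Reads of near-identical copies may have been assigned wrongly, which matters most for a model with so few reads.

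With all 20 libraries, the later times and the comparison of lines gave no FAD2 call in edgeR. At 24 h 0 of 4 FAD2 models passed for both lines, in W and in BC, where 0% of all models passed in each of these comparisons (3498, 1504 and 6831 models at unadjusted p under 0.05). Among all models DESeq2 called 131, 58 and 768 in them and limma 0, 7 and 0. At 48 h 0 of 4 passed, against 0.0257% of all models for both lines, 0.0771% in W and 0% in BC (4960 at unadjusted p under 0.05, 242 in DESeq2 and 0 in limma). Neither DESeq2 nor limma called a FAD2 model at 24 or 48 h. The edgeR fit without BC 0 h replicate 1 leaves the library that stood apart alone at 0 h in BC. In that fit the BC change of FAD2-2C at 48 h was -1.23, against -0.83 with all libraries. FAD2 calls that appeared only in that fit rest on a lone 0 h library and were not taken as results.

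Averaged over the 5 times, BC minus W on the log2 scale was -0.21 for FAD2-1B (edgeR adjusted p = 0.831). It was -0.13 for Glyma19g32940.1 (0.777) and -0.33 ± 0.14 for FAD2-2C (0.527), and none of these passed, against 0.213% of all models. The FAD2-1A difference was -0.55, given without a test since its W libraries at 4 h enter. In the joint F test of whether the time course differed between the lines, FAD2-1B, Glyma19g32940.1 and FAD2-2C did not pass. Their adjusted p ran from 0.597 to 0.736. The joint test is not given for FAD2-1A, whose W libraries at 4 h enter it too. Lines moved in opposite directions without overlap with 0 h for 1 of 4 FAD2 models at 8 h (8.68% of all models), 1 at 24 h (8.76%) and 2 at 48 h (12.8%). In the joint test 0% of all models passed, while 3121 had an unadjusted p under 0.05, DESeq2 called 145 and limma 0.

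As a share of the family's reads in each library, Glyma19g32940.1 averaged 72.0 ± 7.49% in W and 75.2 ± 4.91% in BC (SD, n = 10 libraries over the 5 times). The difference of 3.14 percentage points, with BC higher at 4 of 5 times, had an unadjusted p of 0.0368 in a two-sided exact permutation test of line labels within times. FAD2-2C averaged 27.1 ± 7.51% in W and 24.3 ± 4.81% in BC, a difference of -2.81 points with BC higher at 2 of 5 times (exact permutation, unadjusted p = 0.0563). FAD2-1B averaged 0.181% and 0.163% (exact permutation, unadjusted p = 0.571). FAD2-1A averaged 0.605% in W and 0.287% in BC, which is given without a test since its W libraries at 4 h enter, and the difference of -0.318 points was -0.152 without W 4 h replicate 1. The shares of 1 library sum to 100, so these comparisons are not independent, and no share is called different between the lines. The smallest p the 7776 allocations can give is 0.000257.

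The whole family took 0.0489% to 0.109% of the reads of a library, or 385 to 1173 CPM. Since Glyma19g32940.1 and FAD2-2C made up nearly all of it, the FAD2-1 copies moved this total little even at 4 h, when FAD2-1A reached at most 2.88% of the family's reads in a library.

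By Pearson correlation of log2 CPM over the 20 libraries, among 34227 models with a mean of at least 1 CPM, FAD2-1A was most like Glyma18g48880.1 (r = 0.930), Glyma15g24010.1 (0.919) and Glyma18g13840.1 (0.913). FAD2-1B was most like Glyma15g24010.1 (0.934), Glyma16g25460.1 (0.928) and Glyma16g02860.1 (0.925). Glyma15g24010.1 stood in both lists. Glyma19g32940.1 was most like Glyma19g33290.1 (0.939), Glyma05g36760.1 (0.907) and Glyma11g11090.1 (0.902). FAD2-2C was most like Glyma12g12950.1 (0.885), Glyma03g01080.1 (0.882) and Glyma12g07070.1 (0.867). With Spearman's rank correlation in place of Pearson's, 0 of the 3 names stayed for FAD2-1A and FAD2-2C, 2 for FAD2-1B and 3 for Glyma19g32940.1. The files give these models no function.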

How the data were processed

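The values are raw counts of reads per model for 20 leaf libraries, in 1 table the authors deposited. The submitters' processing notes name HTSeq 0.5.3, Cuffdiff 1.3.0, TopHat 1.4.1 and edgeR, with no roles. The genome build, annotation release and strand setting are not given in the sources used here, so a gene's reads may include those of an overlapping or antisense neighbour. The row for reads with several alignments holds 0, and values of near-identical copies are uncertain. The 5 rows naming no gene were left out (2.79% to 7.46% of reads in no model, 1.43% to 1.86% ambiguous).

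Of 66210 models, 38918 passed filterByExpr. Library sizes were scaled by TMM, and the 20 libraries entered 1 model with 10 groups (edgeR 4.0.16 quasi-likelihood test, robust, two-sided, 10 residual degrees of freedom, biological coefficient of variation 0.285) in R 4.3.3. P-values were adjusted by Benjamini-Hochberg over all tested models, with a threshold of 0.05. Standard errors of fitted changes are the absolute estimate divided by the square root of the F statistic, so they are approximate at low counts. Line labels were permuted exactly within times for read shares, for members with 10 or more reads in at least 10 libraries, and these p-values are given unadjusted. The tests were tested on simulated data. DESeq2 1.42.0, limma 3.58.1 (voom with library weights), RLE size factors, no filter, a replicate block and leaving out each library were alternatives. The members and lists were chosen with earlier results of these data known. Named besides the 5 members are the 3 models most like each tested member (prior count 2, mean CPM of at least 1). Lists of leaf and seed markers and of other desaturases could not be resolved to identifiers and were not used. No replicates were near-duplicates (chi-square per degree of freedom 5.70 to 86.9).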

Additional observations from a re-analysis of the deposited data

Results flagged for a closer look

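In 4 cases the BC and W estimates against 0 h pointed in opposite directions, with every library of one line above its 0 h libraries and every library of the other below. Of all tested models, 8.68% showed this at 8 h, 8.76% at 24 h and 12.8% at 48 h. For Glyma10g42470.1 (FAD2-1A) at 48 h, BC minus W in log2 fold change was 4.02, on 11 reads in BC and 2 in W, and it was 2.75 or 8.09 without one or the other W 48 h library. For Glyma19g32940.1 at 24 h it was -0.99, and -0.68 without BC 0 h replicate 2. For Glyma03g30070.1 (FAD2-2C) it was -1.34 at 8 h and -1.37 at 48 h, and -0.77 and -0.80 without BC 0 h replicate 2. These single differences were not tested, and the joint test over all times gave edgeR adjusted p = 0.619 for Glyma19g32940.1 and 0.597 for FAD2-2C. The joint test is not given for FAD2-1A, whose W libraries at 4 h enter it.

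Among the 4 uninfested libraries of both lines, 1 stood apart for FAD2-2C, BC 0 h replicate 2 at 291 CPM, by Dixon's test (gap over range 0.896, past the critical value). Of the 25 sets of 4 libraries examined, about 1 in 20 is marked by chance. The same library had 7.46% of its reads outside gene models.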

How the results depend on the processing

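Of 1882 recomputed values, 1762 kept their result, 76 lost a call, 41 gained one, 3 moved without a test and 0 called values reversed. Kept covers models and read shares on the same side of the threshold and call counts of like size. Lists of most-like models sharing most names count too, as do untested 4 h values of FAD2-1A that moved less than the replicate SD. Call counts enter beside the models they sum. For this tally alone, read shares were judged by the exact permutation p adjusted by Benjamini-Hochberg over the members tested. The gained calls include 2 for each of the Glyma10g42470.1, Glyma19g32940.1 and Glyma03g30070.1 read shares, and no share is called different here. The tally also holds the share, line and joint tests of FAD2-1A, which are not given above. Of the 1762, 22 changed sign, 0 of them called in either fit. For both lines, limma with library weights called 0 FAD2 models at 4 h (1 in edgeR) and 0 at 8 h (2 in edgeR), and without the low-count filter 1 was called at 8 h, since Glyma19g32940.1 then had adjusted p = 0.0848. Within W, DESeq2 and limma each called 1 model at 4 h and 1 at 8 h (0 in edgeR). Within BC, DESeq2 called 2 at 4 h (0 in edgeR) and 2 at 8 h (1 in edgeR), and at 8 h limma, the fit without the filter and the fit on only the 4 libraries compared each called 0. Leaving out each library in turn gave 0 to 1 calls at 4 h and 0 to 3 at 8 h for both lines, 0 to 1 in W at 4 h and at 8 h, and 0 to 1, 0 to 2, 0 to 1 and 0 to 2 in BC at 4, 8, 24 and 48 h. In percentage points it gave -0.483 to -0.152 for the Glyma10g42470.1 read share, BC minus W, 2.55 to 3.74 for the Glyma19g32940.1 read share, BC minus W, and -3.42 to -2.21 for the Glyma03g30070.1 read share, BC minus W. A lone library left in a group was assumed to vary like the other groups, and the causes were not tested.

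With the replicate number as a replicate block, FAD2-1B was at 2.14 at 4 h (adjusted p = 0.0139) and Glyma19g32940.1 at -0.88 at 8 h (0.0446), and no FAD2 call changed. Replicate differences of 45 group pairs correlated from -0.478 to 0.498, with 15 over 0.1. These values do not settle whether the numbers pair the libraries.

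Counts over all models moved more. At 4 h for both lines 640 became 108 in limma, 1530 in DESeq2 and 228 to 5274 leaving out 1 library. At 8 h 1528 became 581, 2549 and 804 to 5575, and at 48 h 10 became 0, 137 and 0 to 4496. In BC, 32 at 4 h became 0 to 8329 (1895 in DESeq2, 0 in limma), 1381 at 8 h became 236 to 8369 (3841 in DESeq2, 46 in limma), and 0 at 24 and 48 h became up to 8224 and 7214, each maximum without BC 0 h replicate 1. In W, 309 at 4 h became 27 to 381 (730 in DESeq2, 0 on only the 4 libraries), 594 at 8 h became 151 to 772 (1205 in DESeq2) and 30 at 48 h became 0 to 92 (479 in DESeq2). BC against W went from 83 to between 59 and 519 (272 in DESeq2), and the interaction from 0 up to 1801. FAD2-1A and FAD2-1B had under 10 reads in several libraries, which limits what could be seen at 0, 24 and 48 h.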
